A study of Homo sapiens with 28 samples.

Results

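The HOX genes examined here are the protein-coding members of the HOXA, HOXB, HOXC and HOXD clusters, taken as every gene symbol made of HOX, a cluster letter from A to D and a number. The files held 39 of them among 26346 gene symbols, 11 in HOXA, 10 in HOXB, 9 in HOXC and 9 in HOXD. Of these, 29 had enough reads for a test: 11 in HOXA, 9 in HOXB, 9 in HOXC and 0 in HOXD. The choice of members did not use any measured value. The study sequenced polyadenylated RNA of AN3CA, a human endometrial carcinoma cell line, to compare forms of ARID1A and ARID1B, the large subunits that define the cBAF chromatin remodelling complex.

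All libraries came from AN3CA cells with no treatment, and by their labels the groups differed only in the construct. The libraries also fell into 3 sets by strand share, described below, and 1 set held no empty vector. There were 4 libraries of the empty vector and 2 of each of 12 constructs. For ARID1A they were 7: CBR and delIDR1, both truncations, DBDmut with a mutated ARID domain, DDX4, a hybrid carrying the intrinsically disordered region (IDR) of that protein, AQGscram (an AQG scramble), 42YS, which the labels spell in more than 1 way, and the wild type (WT). The 5 ARID1B constructs were the wild type, M2 (S320_G327del), A457_G461del and the deletions Block13del and Block9del. How the constructs were introduced, and whether cells were pools or clones, was not given in the sources used here. The labels do not say that replicates were separate cultures, so each p-value below reflects the scatter among libraries, possibly technical, and not known variation between cultures.

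HOX proteins are homeodomain transcription factors that set positional identity along the body axis and in the limbs and the reproductive tract. In each cluster the genes lie in the order in which they are used along the axis, with low numbers for anterior and high numbers for posterior members. Polycomb complexes keep unused stretches of the clusters silent, while trithorax-type methyltransferases, retinoic acid receptors and SWI/SNF remodellers such as BAF act on the active stretches. In the female reproductive tract HOXA9, HOXA10, HOXA11 and HOXA13 mark successive segments, and HOXA10 and HOXA11 are used in the endometrium. Most HOX proteins bind DNA together with TALE cofactors of the PBX, MEIS and PKNOX families.

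Depth was 16.6 to 27.9 M gene reads per library, with a median of 22.0 M, and levels are given as CPM, counts scaled to effective library size. The libraries fell into 3 sets by the percent of strand-assigned reads in the column used here. This was 84.5 to 87.8% in set 1 (empty vector 1 and 2 with CBR, delIDR1, DBDmut and ARID1A WT), 98.1 to 98.6% in set 2 (DDX4, ARID1B WT, M2 and empty vector 3 and 4) and 96.7 to 97.9% in set 3 (the 5 other constructs, with no empty vector). The labels name no batch. ARID1A averaged 288 CPM in the empty vector and 374 to 1020 CPM with 6 of the 7 ARID1A constructs, but 247 CPM in the libraries labelled AQGscram. ARID1B averaged 98 CPM in the empty vector. With the ARID1B constructs it averaged 4250 CPM (M2), 3600 (WT), 2240 (A457_G461del), 883 (Block13del) and 344 (Block9del). Whether HOX differences between constructs went with the level of ARID1A or ARID1B was not tested. Of epithelial markers, KRT18 ranged from 9.89 to 83.2 CPM, with means of 11.7 CPM in the empty vector, 46.0 with ARID1A WT and 81.6 with M2. The highest library had 5.91 CPM for KRT8, 2.45 for KRT19, 1.63 for CDH1, 0.809 for EPCAM and 0.234 for PAX8. ESR1 and PGR stayed at or below 0.048 CPM. The stromal marker PDGFRB averaged 1.35 CPM in empty vector 1 and 2, 1.86 in 3 and 4, and 33.9 with ARID1A WT. PDGFRA stayed at or below 3.46 CPM, and DCN and LUM at or below 0.0466 CPM. Their part in the HOX values was not tested.

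HOXA, HOXC and most of HOXB were transcribed in AN3CA cells, and HOXD was near silent. Median levels over the 28 libraries were at least 10 CPM for 5 HOXA, 3 HOXB and 6 HOXC genes, and between 1 and 10 CPM for 6 HOXA, 3 HOXB and 3 HOXC genes. The remaining 4 HOXB and all 9 HOXD genes had medians under 1 CPM. Levels of different genes were compared per kilobase of transcript. On that scale HOXC10, a posterior gene used in the hindlimb and lumbar region, was highest with a median of 96.5 CPM per kb. HOXC6 followed with 28.7 CPM per kb, HOXA5 with 24.2, HOXC13 with 18.5, HOXC9 with 15.8 and HOXB9 with 15.5. The lowest of the tested genes were HOXB4 with 0.102 CPM per kb, HOXB2 with 0.181, HOXB7 with 0.447 and HOXA13 with 0.569. HOXB thus mixed weak genes such as HOXB2 and HOXB4 with well transcribed ones such as HOXB9 and HOXB13 (9.11 CPM per kb).

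The HOXD genes gave 121 reads in all over 628 M effective reads, and no HOXD gene exceeded 0.268 CPM in any library. HOXD13, which patterns digits and the urogenital end of the axis, gave 53 reads. HOXD8 gave 29 reads, HOXD11 gave 17, HOXD4 gave 13, HOXD10 gave 4, HOXD9 gave 3, and HOXD1 and HOXD12 gave 1 each. HOXD3 and HOXB1, the most anterior HOXB gene and a hindbrain gene, had 0 reads in all 28 libraries, which allows up to 0.00478 CPM over the series (3 reads, counting error only). No construct brought a HOXD gene or HOXB1 to the level of a test.

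**Figure D1:**
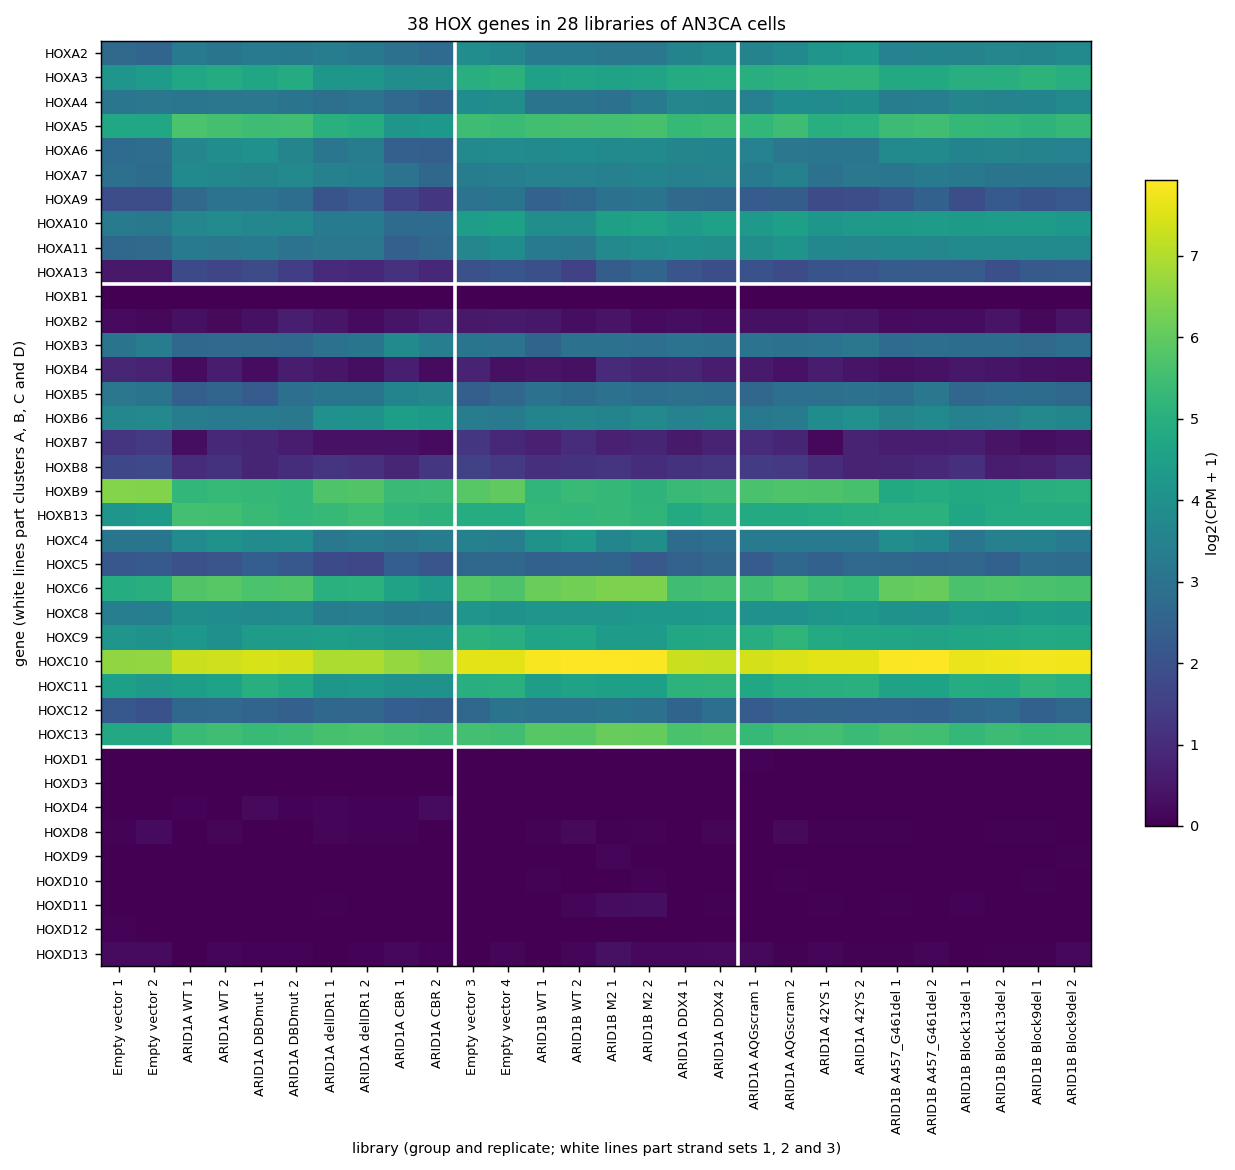
Levels of 38 HOX genes (rows, by cluster and number) in the 28 libraries (columns, by strand set), as log2 of CPM plus a pseudocount of 1. The 9 HOXD rows and HOXB1 lie at the dark end of the colour scale, near 0, HOXC10 is the brightest row with 88.9 to 242 CPM, and the HOXA5 and HOXC10 rows are darker in empty vector 1 and 2 than in empty vector 3 and 4.

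Start regions are shown for 3 expressed genes and for the HOXD gene with the most reads, to set active promoters beside a near silent promoter of the same family. Each is the 250 bases before the start of the gene, on the strand of the gene, from the RefSeq table for GRCh38.p14. Capitals mark matches on either strand. The letters searched for the TATA box were TATAAA. The CCAAT box was searched by the letters of its name. The letters of the E-box, bound by basic helix-loop-helix factors, were CACGTG. Those of the TEAD site, bound by the factors of the Hippo pathway, were GGAATG.
HOXA6, chr7:27147775-27148024, minus strand: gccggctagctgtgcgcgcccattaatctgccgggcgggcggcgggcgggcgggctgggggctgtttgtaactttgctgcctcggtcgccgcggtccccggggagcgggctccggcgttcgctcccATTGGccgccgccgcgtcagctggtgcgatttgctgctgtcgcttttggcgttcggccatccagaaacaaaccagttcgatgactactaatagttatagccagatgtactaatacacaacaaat
HOXA9, chr7:27165538-27165787, minus strand: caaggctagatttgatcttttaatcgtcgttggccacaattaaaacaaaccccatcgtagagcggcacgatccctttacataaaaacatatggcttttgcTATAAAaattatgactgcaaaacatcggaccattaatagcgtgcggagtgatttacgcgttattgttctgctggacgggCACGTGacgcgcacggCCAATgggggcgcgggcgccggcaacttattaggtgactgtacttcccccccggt
HOXC4, also HOXC5, chr12:54016638-54016887, plus strand: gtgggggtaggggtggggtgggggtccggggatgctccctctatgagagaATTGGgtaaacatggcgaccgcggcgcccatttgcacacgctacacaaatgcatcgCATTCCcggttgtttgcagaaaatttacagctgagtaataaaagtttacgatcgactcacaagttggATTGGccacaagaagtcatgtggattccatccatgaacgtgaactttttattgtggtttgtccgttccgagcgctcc
HOXD13, chr2:176092471-176092720, plus strand: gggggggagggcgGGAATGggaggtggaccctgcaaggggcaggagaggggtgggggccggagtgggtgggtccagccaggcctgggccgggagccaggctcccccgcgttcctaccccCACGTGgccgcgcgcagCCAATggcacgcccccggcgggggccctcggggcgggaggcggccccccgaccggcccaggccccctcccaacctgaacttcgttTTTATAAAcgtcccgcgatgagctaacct
The near silent HOXD13 window and the active HOXA9 window both held a TATA box, a CCAAT box and an E-box, so these letters did not separate them. The HOXA6 window held a CCAAT box only, and the HOXC4 window, which RefSeq also gives for HOXC5, held a TEAD match and 2 CCAAT boxes. Over all 35116 promoters of the table, 10.7% held the TATA letters, 32.0% the CCAAT letters, 6.34% the E-box letters and 11.9% the TEAD letters. An AP-1 site (TGANTCA), found in 6.57% of all promoters, matched in 0 of the 27 promoters listed for 20 HOX genes. HOX promoters were rich in CpG dinucleotides, with a median of 19.0 in 250 bases against 11.0 over all promoters, and 19 of the 27 lay above that median. HOXD13 had 21 CpG, HOXA9 had 20, HOXA6 had 27 and HOXC4 had 14. A match is a description of the letters and not a measured site.

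The first comparison asked how far the controls themselves differed in HOX genes. HOXA and HOXC were lower in empty vector 1 and 2 than in empty vector 3 and 4, and HOXB9 was higher. The HOXA genes summed to 88.9 ± 1.25 CPM in empty vector 1 and 2 (SD, n = 2) and to 174 ± 1.03 CPM in empty vector 3 and 4. HOXC summed to 214 ± 0.263 and 392 ± 3.28 CPM, and HOXB to 136 ± 2.28 and 114 ± 2.38 CPM. Of the 29 tested genes, 22 were higher in empty vector 3 and 4, 3 were lower and 4 did not pass, while 58.5% of all 14220 tested genes passed in this contrast (28.8% higher and 29.7% lower). All 11 HOXA and all 9 HOXC genes were among the 22, with medians of 1.19 and 0.78 on the log2 scale against -0.02 for all genes. HOXA13, the most posterior HOXA gene, had 0.453 and 0.450 CPM in empty vector 1 and 2 but 2.88 and 3.34 CPM in empty vector 3 and 4 (log2 fold change 2.78 ± 0.30, SE). The pairs lie in different strand sets, and pair and set cannot be told apart. Each construct of sets 1 and 2 was therefore tested against all 4 empty vector libraries and also against the pair of its own set, called its own pair below.

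**Figure D2:**
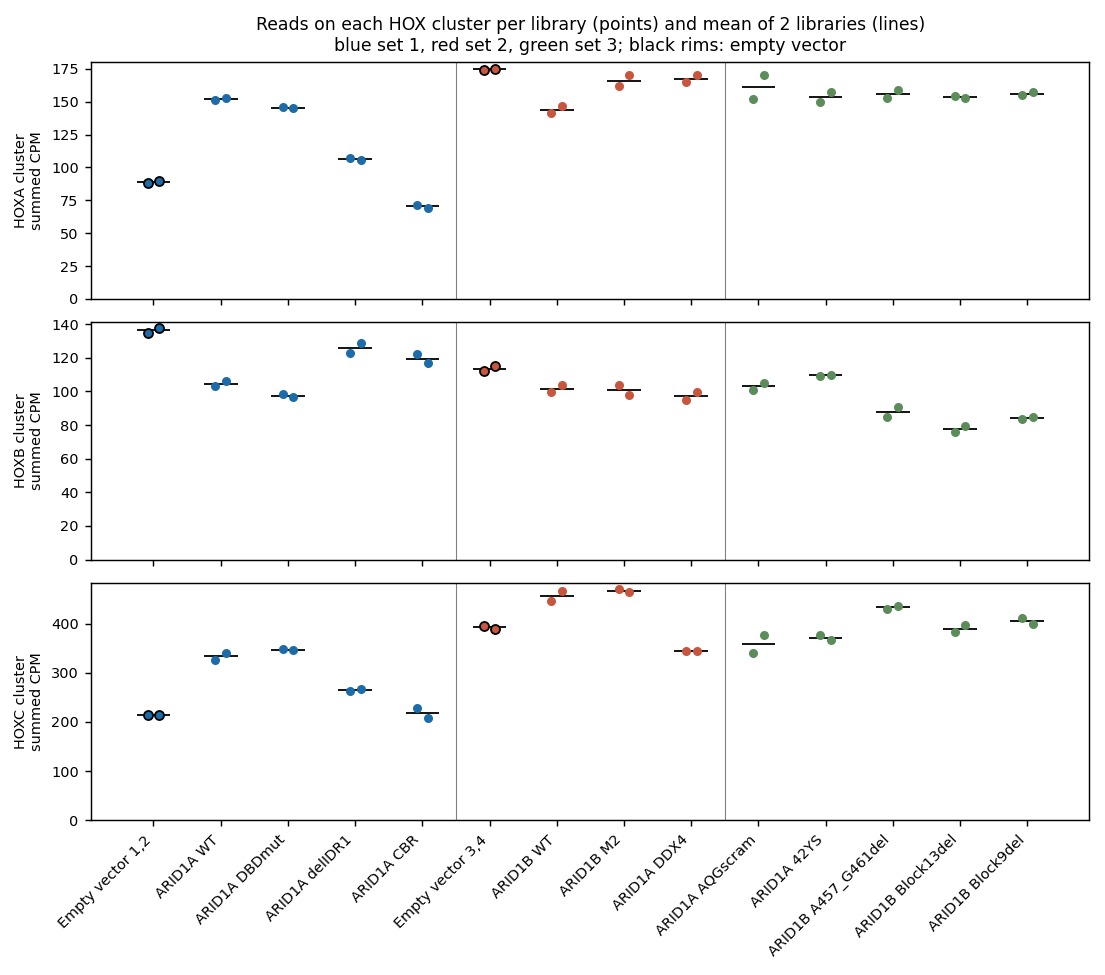
Summed CPM of the HOXA, HOXB and HOXC genes in each library (points), grouped by construct and coloured by strand set, with black rims for the empty vector. HOXA and HOXC sums of empty vector 1 and 2 (88.9 and 214 CPM on average) lie well below those of empty vector 3 and 4 (174 and 392 CPM), and among the constructs CBR is lowest in both.

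Wild-type ARID1A was compared with the empty vector to ask how HOX levels differed in cells given this construct. HOXB9 fell and HOXB13 rose against either control. HOXB9, a trunk gene of HOXB, had 37.2 and 38.6 CPM with ARID1A WT against 86.0, 85.7, 57.5 and 62.0 CPM in the empty vector. Neither WT library reached the lowest control. The fold change against all 4 controls was 1.92-fold lower (log2 -0.94 ± 0.12, adjusted p = 3.59e-06), and against its own pair 2.26-fold lower (-1.18 ± 0.059, adjusted p = 2.63e-15). HOXB13, the most posterior HOXB gene and a marker of prostate and colon epithelium, had 45.6 and 45.2 CPM against 17, 18.8, 28.8 and 29.2 CPM. Both WT libraries lay above every control, with a log2 fold change of 0.96 ± 0.14 against all 4 (adjusted p = 1.92e-05) and of 1.34 ± 0.073 against the own pair (adjusted p = 1.62e-14).

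Against all 4 controls 4 of 29 HOX genes rose with ARID1A WT and 6 fell, where 44.5% of all tested genes passed (21.1% up and 23.5% down). The share among HOX genes was thus not above that among all genes. The rises were HOXA5, HOXA7, HOXB13 and HOXC4, and the falls HOXB3, HOXB7, HOXB8, HOXB9, HOXC5 and HOXC9. Against the own pair 17 rose and 6 fell, where 60.7% passed (29.9% up and 30.8% down). By cluster that was 10 up and 0 down of 11 in HOXA, 1 up and 6 down of 9 in HOXB, and 6 up and 0 down of 9 in HOXC. Cluster medians were 0.91, -0.70 and 0.69, beside -0.03 for all genes. Most HOXA and HOXC calls were thus made only against the own pair, whereas HOXB3, HOXB7, HOXB8, HOXB9 and HOXB13 passed in the same direction against both. Without ARID1A WT replicate 1 the count against all 4 controls was 5.

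In HOXA the largest rise over the own pair was that of HOXA13, from 0.453 and 0.450 CPM to 2.46 and 2.16 CPM (log2 2.33 ± 0.32, adjusted p = 5.31e-07). Empty vector 3 and 4, at 2.88 and 3.34 CPM, were higher than the WT libraries, and against all 4 controls HOXA13 did not pass (0.45 ± 0.51). HOXA9, a posterior gene best known from leukaemia, had 5.68 and 7.12 CPM with WT and 2.63 and 2.65 CPM in its own pair, a rise of 1.29 ± 0.18. It lay below empty vector 3 and 4 (7.13 and 7.53 CPM). HOXA6 rose by 1.10 ± 0.13 over the own pair, HOXA10 by 0.57 ± 0.098 and HOXA11 by 0.60 ± 0.13. HOXA4 did not pass there (0.02 ± 0.13). HOXA5, a mid-cluster gene used in lung and mammary epithelium, had 50.3 and 46.6 CPM with WT, above all 4 controls (25.8, 25.2, 42.8 and 41.4 CPM). Its rise was 0.53 ± 0.15 against all 4 (adjusted p = 0.0085) and 0.93 ± 0.072 against the own pair (adjusted p = 2.1e-11). HOXA7, on the other side of HOXA6, likewise lay above every control with 12.8 and 12.1 CPM against 6.53, 5.93, 9.22 and 9.48 CPM (0.69 ± 0.15 against all 4).

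In HOXB, HOXB3, HOXB7 and HOXB8 were lower with ARID1A WT against both sets of controls, like HOXB9. HOXB8 had 0.995 and 1.22 CPM against 2.27, 2.34, 1.96 and 1.56 CPM in the controls (-0.87 ± 0.28). HOXB7 had 0.234 and 0.843 CPM against 1.27, 1.53, 1.37 and 0.836 CPM (-1.15 ± 0.45), and here 1 WT library touched the control range. HOXB3 had 5.33 and 5.48 CPM against 7.30, 9.13, 7.46 and 7.02 CPM (-0.52 ± 0.14). HOXB5 and HOXB6 passed only against the own pair, with -0.70 ± 0.17 and -0.41 ± 0.099, and their WT levels were close to those of empty vector 3 and 4. HOXB2 and HOXB4, under 1 CPM throughout, did not pass in either comparison.

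In HOXC, HOXC4 rose against both sets of controls. It had 13.3 and 15.7 CPM with WT against 7.48, 7.51, 10.1 and 9.48 CPM, so the groups did not overlap (0.76 ± 0.13 against all 4 and 0.96 ± 0.13 against the own pair). HOXC10, the most abundant HOX gene, had 156 and 164 CPM with WT, between empty vector 1 and 2 (97.2 and 99.5 CPM) and empty vector 3 and 4 (191 and 193 CPM). It rose by 0.70 ± 0.053 over the own pair (adjusted p = 1.22e-11), while its difference from all 4 controls was 0.14 ± 0.20. HOXC6 had 53.7 and 56.8 CPM against 28.9 and 30.0 CPM in the own pair, a rise of 0.91 ± 0.080. HOXC8 (0.54 ± 0.080), HOXC12 (0.74 ± 0.16) and HOXC13 (0.69 ± 0.076) also rose over the own pair. HOXC9 and HOXC5 passed as lower against all 4 controls (-0.56 ± 0.22 and -0.51 ± 0.20) but not against the own pair (-0.00 ± 0.090 and -0.20 ± 0.19).

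**Figure D3:**
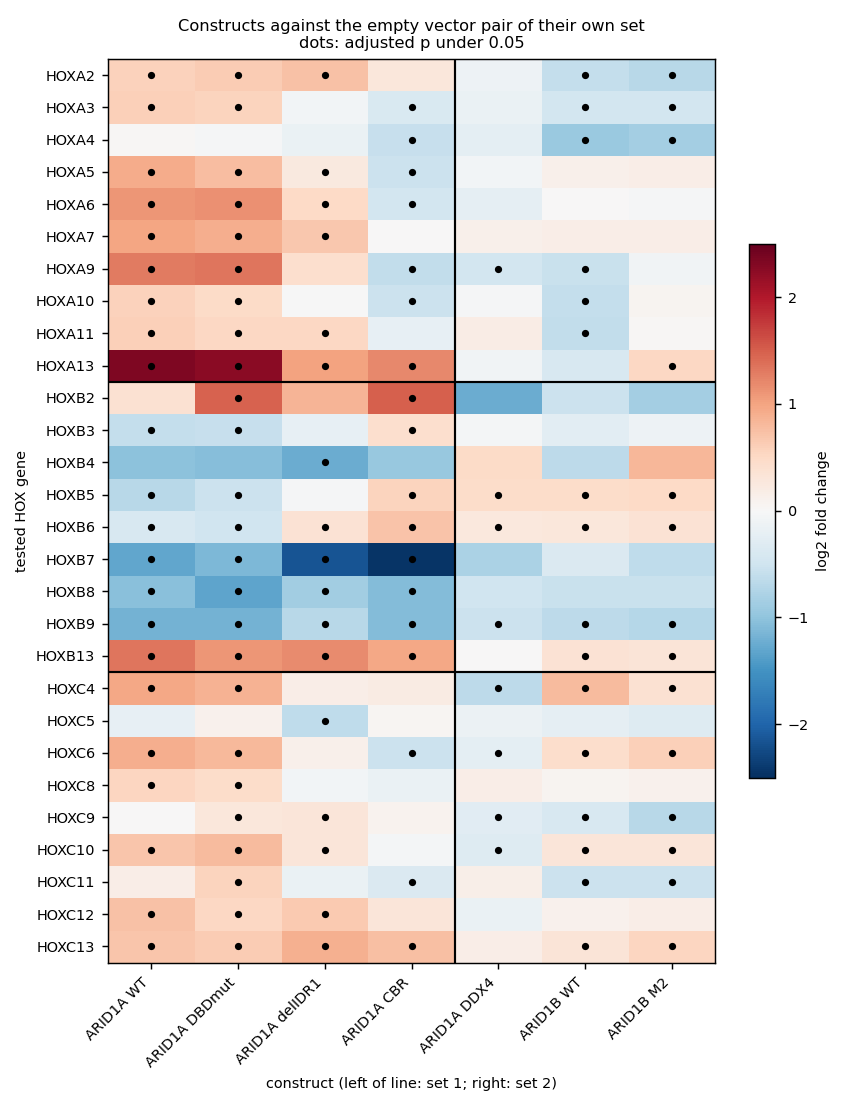
Log2 fold changes of 28 tested HOX genes (rows) in the 7 constructs of sets 1 and 2 (columns) against the empty vector pair of their own set, with a dot where the gene passed. The ARID1A WT and DBDmut columns are raised in 9 of the 10 plotted HOXA genes each, and the HOXB9 row is lowered in all 7 columns (-0.53 to -1.19).

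The CBR truncation was then set against ARID1A WT within set 1, a comparison that uses no empty vector library as its reference. CBR had lower HOXA and HOXC levels than WT and higher HOXB3, HOXB5 and HOXB6. HOXA summed to 70.4 ± 1.57 CPM with CBR and 152 ± 1.55 CPM with WT (SD, n = 2), and HOXC to 218 ± 14.2 and 333 ± 11.1 CPM, while HOXB was 120 ± 3.42 and 105 ± 1.86 CPM. The test called 3 of 29 genes higher and 12 lower, with 47.5% of all genes passing (22.2% up and 25.3% down). The lower ones were 7 of 11 HOXA genes and 5 of 9 HOXC genes, and the higher ones were all in HOXB. The cluster medians were -0.99 for HOXA, 0.10 for HOXB and -0.52 for HOXC, beside -0.02 for all genes.

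HOXA9 showed the largest difference, with 2.02 and 1.40 CPM with CBR against 5.68 and 7.12 CPM with WT, 3.73-fold lower (log2 -1.90 ± 0.41, adjusted p = 0.000821). HOXA5 had 17.2 and 17.8 CPM against 50.3 and 46.6 CPM, 2.77-fold lower (adjusted p = 3.35e-06). In both genes the CBR libraries were also below all 4 controls. HOXA6, at 4.40 and 4.24 CPM against 11.6 and 13.7 CPM, was 2.93-fold lower. HOXC6 had 22.5 and 18.0 CPM with CBR against 53.7 and 56.8 CPM, 2.73-fold lower (adjusted p = 3.04e-05), again below all 4 controls. HOXC10 had 102 and 88.9 CPM with CBR, 1.68-fold lower than WT and next to empty vector 1 and 2. HOXA3, HOXA7, HOXA10, HOXA11, HOXC4, HOXC8 and HOXC11 were lower by -0.52 to -1.10 on the log2 scale.

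HOXB6 had 20.5 and 18.8 CPM with CBR against 9.19 and 8.86 CPM with WT, 2.18-fold higher (adjusted p = 8.94e-07). No other library of the series reached the CBR values of HOXB6, and the controls had 8.86 to 12.2 CPM. HOXB5 had 10.8 and 11.6 CPM against 4.22 and 5.01 CPM, 2.41-fold higher, and HOXB3 had 12.5 and 9.46 CPM against 5.33 and 5.48 CPM, 2.03-fold higher. These 3 genes were the only HOX genes that passed as higher with CBR than with WT, and HOXB9 did not differ beyond its error (0.10 ± 0.14, 40.2 and 41.3 CPM with CBR). HOXC13, at the posterior end of HOXC, was close to WT too, with 46.0 and 43.5 CPM against 41.3 and 44.0 CPM (0.07 ± 0.19). Against all 4 controls CBR gave 4 rises and 14 falls (53.1% of all genes passed), and against its own pair 7 rises and 11 falls (59.6%).

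The delIDR1 truncation lacks a disordered region, per its label's name, and stood between WT and CBR in most genes. HOXA summed to 107 ± 0.678 CPM and HOXC to 265 ± 1.92 CPM (SD, n = 2). Against WT 4 genes were higher and 5 lower, with 40.2% of all genes passing. HOXB6 was higher at 15.1 and 15.6 CPM (0.77 ± 0.13), as were HOXB5, HOXB3 and HOXB9, the last at 53.0 and 53.4 CPM against 37.2 and 38.6 CPM (0.49 ± 0.14). HOXC4 (-0.79 ± 0.16), HOXC6 (-0.78 ± 0.22), HOXA5 (-0.68 ± 0.18), HOXA3 (-0.65 ± 0.21) and HOXC8 (-0.60 ± 0.19) were lower. HOXA9 did not pass (-0.86 ± 0.37). With the control pairs fitted as separate groups 6 genes were higher and 14 lower, where 57.8% of all genes passed. Against all 4 controls delIDR1 gave 3 rises and 9 falls (50.1% of all genes), and against its own pair 13 rises and 5 falls (56.3%), or 10 and 3 without delIDR1 replicate 2. With either delIDR1 library left out, 5 genes passed against all 4 controls, and 4 or 5 against WT.

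With DBDmut 0 of the 29 HOX genes passed against WT by the edgeR test, where 5.62% of all genes passed. At an unadjusted p under 0.05 there was 1 gene, and DESeq2 called 0. Log2 differences ran from -0.28 (HOXB8) to 1.07 (HOXB2, under 1 CPM) with a median standard error of 0.24. A call takes a difference well above its standard error, so differences larger than that error could also go uncalled. HOXA9 had 7.11 and 6.23 CPM with DBDmut, HOXC10 had 174 and 169 CPM and HOXB9 had 38.2 and 37.0 CPM, each close to or overlapping the WT values. In the fit with separate control pairs (19.1% of all genes passed), which narrows the error, HOXC11 (0.38 ± 0.087) and HOXC9 (0.29 ± 0.088) passed as higher and HOXB13 (-0.24 ± 0.067) as lower. Against all 4 controls DBDmut gave 3 rises and 4 falls (35.1% of all genes), and against its own pair 20 rises and 6 falls (59.0%), again with 10 of 11 in HOXA up. The count of 7 against all 4 controls became 4 with either DBDmut library left out and 11 without empty vector 3 or 4.

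**Figure D4:**
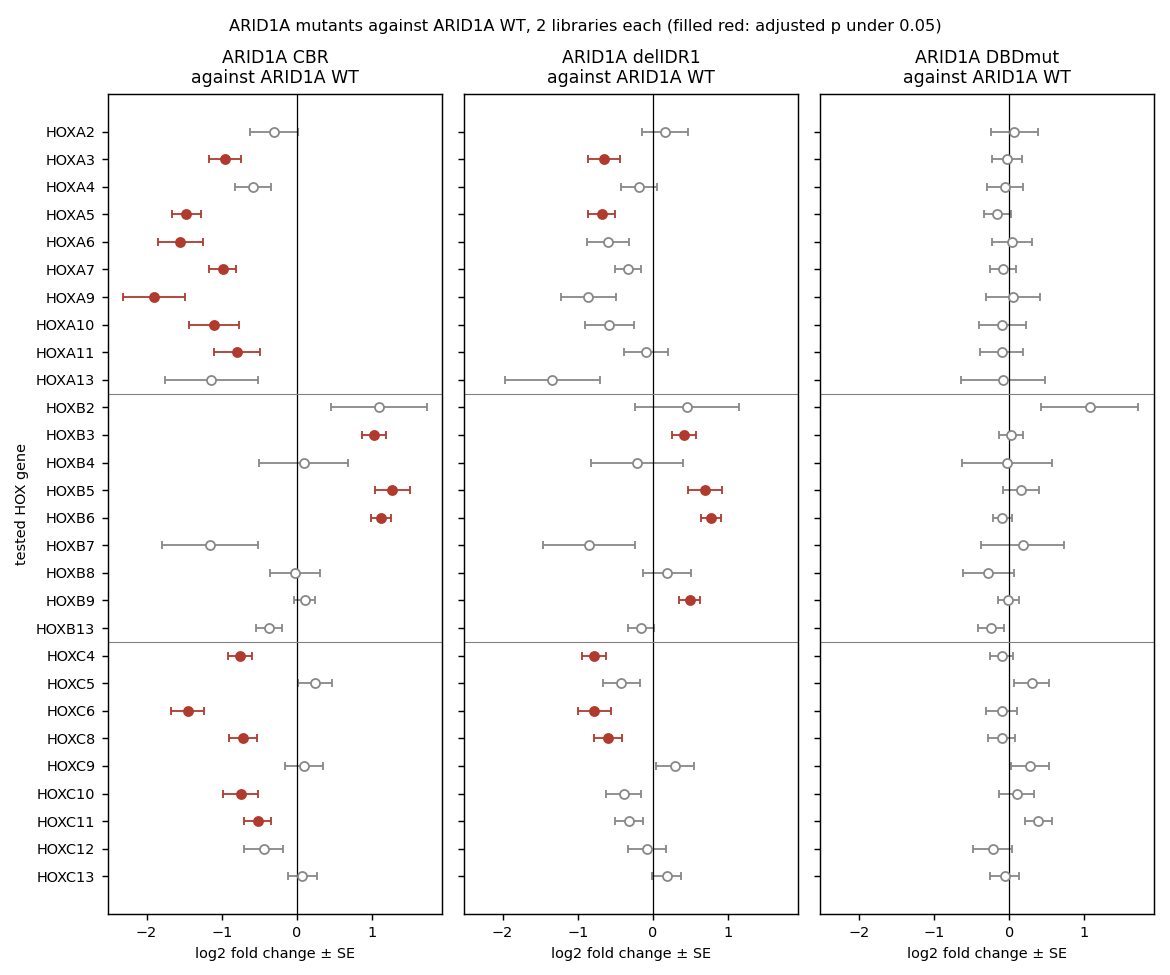
Log2 differences of 28 tested HOX genes from ARID1A WT in CBR, delIDR1 and DBDmut, with bars of ± 1 SE and filled red points where the gene passed. CBR is lowest at HOXA9 (-1.90) and highest at HOXB5 (1.27), delIDR1 has 9 filled points, fewer than CBR, and no DBDmut point is filled.

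ARID1B WT was compared with the same controls for the paralogous subunit. HOXC4, HOXC6 and HOXC10 rose and HOXB9 fell against either control. HOXC4 had 15.6 and 18.0 CPM with ARID1B WT, above every control (7.48 to 10.1 CPM), with a log2 fold change of 0.97 ± 0.13 against all 4 and of 0.79 ± 0.13 against its own pair. HOXC6 had 70.4 and 75.0 CPM against 56.2 and 51.4 CPM in its own pair (0.44 ± 0.076). HOXC10 had 231 and 242 CPM against 191 and 193 CPM (0.30 ± 0.051). The highest HOXC10 values of the series, 231 to 242 CPM, were those of ARID1B WT, M2 and A457_G461del. HOXB9 had 36.1 and 39.8 CPM, below every control (-0.94 ± 0.12 against all 4, adjusted p = 4.71e-06, and -0.65 ± 0.061 against its own pair).

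Against all 4 controls 8 HOX genes rose with ARID1B WT and 4 fell, where 43.1% of all genes passed. Against its own pair 7 rose and 9 fell, where 52.0% passed. Leaving out either ARID1B WT library left 6 calls against all 4 controls. Against the own pair 0 of 11 HOXA genes rose and 6 fell, with a median of -0.46. HOXA4 fell by 0.93 ± 0.13 on the log2 scale, from 13.5 and 14.0 CPM to 7.20 and 7.27 CPM, and HOXA10 had 14.2 and 14.1 CPM against 20.9 and 21.6 CPM (-0.59 ± 0.086). HOXA11 (-0.61 ± 0.11), HOXA2 (-0.59 ± 0.12), HOXA9 (-0.55 ± 0.16) and HOXA3 (-0.46 ± 0.082) were the other falls. Of these 6, only HOXA4 also passed against all 4 controls. In the other 5 the ARID1B WT libraries lay above empty vector 1 and 2 and below empty vector 3 and 4.

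The M2 form of ARID1B gave 11 rises and 2 falls against all 4 controls, where 47.3% of all genes passed, and 9 rises and 6 falls against its own pair, where 53.1% passed. The first count was 8 without M2 replicate 1 and 6 without replicate 2. HOXC6 reached its series maximum there, at 81.7 and 80.4 CPM, and HOXC13, a gene of hair follicles and nails, had 66.8 and 65.2 CPM against 46.1 and 44.5 CPM in the own pair (0.54 ± 0.069). HOXA13 had 4.09 and 4.94 CPM, above every other library of the series. Set against ARID1B WT directly, 0 of 29 HOX genes passed (14.3% of all genes did), with 5 genes at an unadjusted p under 0.05 by edgeR, 4 up and 1 down, and 0 by DESeq2. With the control pairs fitted as separate groups 7 genes were higher with M2 and 2 lower (34.4% of all genes passed). Of these HOXA10 had 21.6 and 22.7 CPM with M2 against 14.2 and 14.1 CPM (0.64 ± 0.082), and HOXA9, HOXA11 and HOXA13 were higher too. HOXC4 was lower at 11.5 and 14.0 CPM against 15.6 and 18.0 CPM (-0.41 ± 0.11).

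The DDX4 hybrid, in the same set as ARID1B WT, changed few HOX genes against its own pair. It gave 3 rises and 6 falls of 29, where 50.5% of all genes passed, and 6 rises and 3 falls against all 4 controls, where 39.5% passed. Against the own pair the rises were 2 without DDX4 replicate 1 and 1 without DDX4 replicate 2, empty vector 3 or empty vector 4, with 5 falls each time. The count against all 4 controls was 2 and 3 without DDX4 replicate 1 and 2, 5 without empty vector 1 and 16 without empty vector 4. HOXC4 had 5.90 and 6.51 CPM, below every other library of the series, against 10.1 and 9.48 CPM in its own pair (-0.65 ± 0.14). HOXC10 had 157 and 149 CPM against 191 and 193 CPM (-0.33 ± 0.052), and HOXB9 had 40.4 and 42.3 CPM against 57.5 and 62.0 CPM (-0.53 ± 0.059). HOXB13, which rose with ARID1A WT, had 27.9 and 30.2 CPM against 28.8 and 29.2 CPM (0.00 ± 0.072). The difference between the DDX4 and the ARID1A WT responses, each over its own pair, passed in 21 of 29 genes (4 up and 17 down, 50.5% of all genes), and it contains the difference between the control pairs.

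The 5 constructs of set 3 had no empty vector of their own set, and their calls differed with the control used. The libraries labelled AQGscram differed from each other more than replicates 1 and 2 of any other group. Chi-square per gene against counting error was 30.4 there and 1.18 to 4.99 elsewhere. The fit shares its estimate of spread over all groups, so errors for AQGscram may be too small. Against all 4 controls the libraries labelled AQGscram gave 1 rise and 2 falls (24.7% of all genes passed), 42YS 4 and 3 (33.8%), A457_G461del 5 and 4 (39.0%), Block13del 2 and 4 (39.3%), and Block9del 5 and 4 (39.0%). Against empty vector 1 and 2 alone each had 19 or 20 rises and 3 to 6 falls, where 60.2, 61.0, 63.4, 63.5 and 63.8% of all genes passed in the same order. Against empty vector 3 and 4 alone they had 0 to 6 rises and 4 to 11 falls, where 34.0, 45, 47.8, 44.2 and 42.6% passed. Leaving out empty vector 3 or 4 raised the counts against the remaining controls to between 10 and 16, and leaving out 1 construct library brought them to between 1 and 4. Without empty vector 1 or 2 the libraries labelled AQGscram had 1 call, and without empty vector 2 Block9del had 4. HOXB9 was lower in all 5 constructs against either pair, from -0.23 ± 0.059 (AQGscram, empty vector 3 and 4) to -1.64 ± 0.060 (Block13del, empty vector 1 and 2). HOXB9 levels were lowest of the series in the 3 ARID1B deletions, with 27.1 and 28.7 CPM in A457_G461del, 27.2 and 27.9 in Block13del and 30.2 and 31.8 in Block9del. The libraries labelled AQGscram had 49.6 and 52.0 CPM and 42YS had 50.9 and 48.0 CPM.

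HOXA9 went the other way in part of these comparisons. It had 2.55 to 4.5 CPM in the 10 libraries of set 3, against 7.13 and 7.53 CPM in empty vector 3 and 4 and 2.63 and 2.65 CPM in empty vector 1 and 2. It was lower in all 5 constructs against empty vector 3 and 4 (-0.88 to -1.49) and was called higher in AQGscram and A457_G461del against empty vector 1 and 2 (0.59 ± 0.19 and 0.56 ± 0.19). HOXC10 had 171 to 241 CPM in set 3 and was highest in A457_G461del, at 234 and 241 CPM (0.71 ± 0.19 against all 4 controls).

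Within set 3 few HOX genes passed. 42YS had higher HOXB6 than the libraries labelled AQGscram, at 13.6 and 15.1 CPM against 8.20 and 8.74 CPM (0.76 ± 0.13, adjusted p = 0.000441). That was the only one of 29 genes to pass in this comparison, where 15.8% of all genes did, and in the fit with separate control pairs 3 were higher and 7 lower (38.1%). As said above, errors for AQGscram may be too small. Between A457_G461del and Block13del 0 of 29 genes passed (5.48% of all genes did), with 1 at an unadjusted p under 0.05 by edgeR and 1 called by DESeq2. Against Block9del 0 genes passed (12.6%), with 3 at an unadjusted p under 0.05 and 1 called by DESeq2. Between Block13del and Block9del 0 genes passed (0.471%), with 0 at an unadjusted p under 0.05 and 0 by DESeq2. With separate control pairs 5 genes were higher in A457_G461del than in Block13del and 2 lower (20% of all genes), and 6 were higher and 4 lower than in Block9del (31.6%). HOXC6 was among the higher ones in both (0.36 ± 0.074 and 0.42 ± 0.073), at 63.8 and 66.8 CPM against 48.7, 52.6, 49.1 and 48.5 CPM. ARID1B itself averaged 2240 CPM in A457_G461del, 883 CPM in Block13del and 344 CPM in Block9del. The part of that level in these differences was not tested.

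ARID1A WT and ARID1B WT were compared directly to ask whether the paralogs left different HOX levels. ARID1A WT lies in set 1 and ARID1B WT in set 2, so construct and set cannot be told apart in this comparison. None of 29 genes passed by edgeR (13.5% of all genes did). At an unadjusted p under 0.05 there were 5 genes, all lower with ARID1A WT, and DESeq2 called 0. All 29 lay within 2-fold, from -0.65 (HOXB2) to 0.36 (HOXA9), with a median standard error of 0.24. With the control pairs fitted as separate groups 2 were higher with ARID1A WT and 8 lower (35.2% of all genes passed), among them HOXC10, at 156 and 164 CPM against 231 and 242 CPM (-0.56 ± 0.052). The responses over each construct's own pair differed in 19 genes upward and 3 downward (41.6% of all genes passed), including all 11 HOXA genes with a median of 1.16. That difference of responses contains the difference between the control pairs. The HOXA genes were higher in the own pair of ARID1B WT than in that of ARID1A WT, by a median of 1.19. This control term enters with the same sign as the median of 1.16 and is about as large.

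HOXB9 was the only HOX gene called in all 12 constructs against the empty vector, and it was lower in each. The 24 construct libraries had 27.1 to 53.4 CPM with a median of 38.4 CPM, and the 4 controls 57.5 to 86.0 CPM, so the ranges did not overlap. Its fall was also called in 7 of 7 comparisons with the own pair (-0.53 to -1.19). HOXB8, 1 gene away in the cluster, was called lower in 11 of 12 constructs, and 23 of 24 construct libraries lay below every control. HOXB7 was called lower in 7 of 12, with 21 of 24 libraries below every control, at levels of 0.127 to 0.996 CPM that make its size uncertain. All 12 comparisons share the same control libraries, so they are not independent. In single constructs 24.7% (AQGscram) to 53.1% (CBR) of all tested genes passed against all 4 controls. How many of all tested genes were called in all 12, or lay outside the control range, was not counted.

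HOXB13 was the most frequent rise, called in 7 of 12 constructs and in 6 of 7 comparisons with the own pair. Its construct libraries had 25 to 45.6 CPM, with 16 of 24 above every control. HOXC8 was called higher in 6 constructs and lower in 2, HOXC10 and HOXC4 each higher in 5 and lower in 1, HOXA7 higher in 5 and HOXC13 higher in 4. HOXB3 was called lower in 6 and higher in 1, that being CBR. Over all 29 genes, 8 were called upward only, 8 downward only, 11 in both directions and 2 (HOXB2 and HOXB4) in none. Such counts over constructs were not made for all tested genes.

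**Figure D5:**
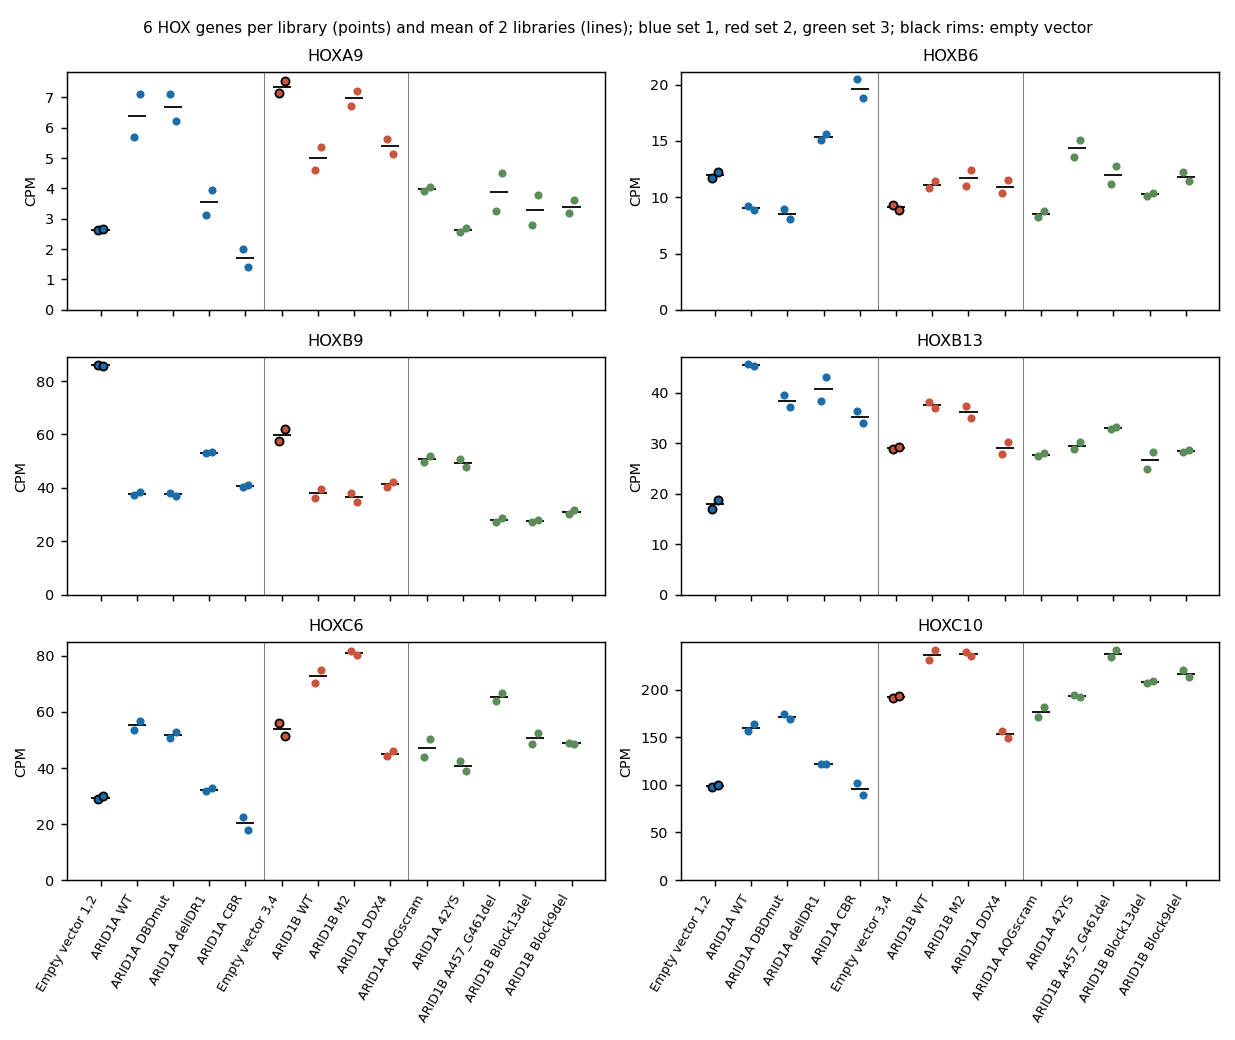
CPM of HOXA9, HOXB6, HOXB9, HOXB13, HOXC6 and HOXC10 in every library, by group and coloured by strand set. HOXB9 is below the 4 empty vector libraries in all 24 construct libraries, HOXB6 stands out in CBR (20.5 and 18.8 CPM), and HOXA9 and HOXC6 drop in CBR.

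Antisense transcripts run through the clusters, so the column counted without strand was compared with the sum of both stranded columns. The unstranded column kept all strand-assigned reads of HOXA5 and HOXB9, on either strand, to within rounding. It kept only 18.0 to 23.1% of those of HOXA7, depending on the set, and 44.1 to 46.6% of those of HOXA10. The HOXA-AS3 transcript covers 74.7% of the exon bases of HOXA7, and HOXA10-AS covers 19.3% of those of HOXA10. The counted column, on the strand of the gene, held 73.0% of strand-assigned HOXA10 reads in set 1 and 80.9 and 82.9% in sets 2 and 3. Levels of HOXA7 and HOXA10 are therefore less certain than those of HOXA5 or HOXB9, whose exons no annotated antisense gene overlaps. HOXA9 has no such overlap either, but its share in the counted column was 73.6% in set 1, against 96.0 and 93.9% in sets 2 and 3. Its level in set 1 is thus less certain too. Of the genes that were higher with CBR, HOXB6 shares 14.4% of its exon bases with HOXB-AS3 and HOXB3 4.8% with HOXB-AS1 and HOXB-AS3. Without strand, ARID1A WT gave 17 rises and 7 falls against its own pair (60.6% of all genes passed), beside 17 and 6 with strand. HOXC4, HOXC5 and HOXC6 share exons on the same strand (21.3, 14.4 and 14.9% of their exon bases), so reads of these 3 can be split between them.

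Noncoding RNAs of the clusters were taken from a list of 23, of which 17 were in the files. Of 13 tested, 1 rose with ARID1A WT against all 4 controls and 0 fell (44.5% of all genes passed), and 6 rose and 2 fell against the own pair (60.7%), a share close to that of all genes. HOXA-AS3 rose against both (0.82 ± 0.20 and 1.10 ± 0.19). In set 1 only 24.9% of strand-assigned HOXA-AS3 reads were in the counted column. HOXA-AS3 overlaps HOXA7, which was higher too, and reads of these genes are not fully separable there. HOTAIRM1, a noncoding RNA at the anterior end of HOXA that responds to retinoic acid, had a mean of 8.62 CPM in empty vector 1 and 2, 16.3 CPM with ARID1A WT and 7.42 CPM with CBR (CBR against WT -1.13 ± 0.25). HOTAIR, transcribed from the opposite strand within HOXC, had a mean of 11.3 CPM in empty vector 1 and 2 and 14.1 CPM with ARID1A WT (0.32 ± 0.087 against the own pair). It averaged 15.2 CPM in empty vector 3 and 4. Its group means over the series ran from 9.47 CPM with DDX4 to 15.9 CPM with ARID1B WT. With CBR against WT 1 of the 13 was higher and 4 were lower (47.5% of all genes passed). HOXB-AS1 was the higher one, at means of 1.69 and 0.515 CPM, and it overlaps HOXB3, which was higher too. Since set 1 has the lowest share of reads on the counted strand, HOXB-AS1 and HOXB3 reads are not fully separable there.

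The genes beside the clusters were examined in the same way. Of 11 tested flanking genes, 2 rose with ARID1A WT against all 4 controls and 1 fell (44.5% of all genes passed), and 4 rose and 4 fell against the own pair (60.7%). TTLL6, the tubulin glutamylase gene next to HOXB13, rose from means of 0.564 and 0.0654 CPM in the 2 control pairs to 8.61 CPM (4.62 ± 0.38 against all 4). It had 3.23 CPM with CBR and 2.54 CPM with ARID1B WT. HIBADH, a valine catabolism gene beyond HOXA13 and EVX1, rose by 0.57 ± 0.10 and was lower with CBR than with WT (-1.07 ± 0.12). SKAP2, at the anterior end of HOXA, was also lower with CBR (-0.84 ± 0.093). CALCOCO2, beyond TTLL6, fell by 0.27 ± 0.046 on the log2 scale. The HOXD flanks KIAA1715 (LNPK) and MTX2 were expressed at 66.8 and 32.7 CPM with ARID1A WT beside the near silent cluster and did not pass there (-0.11 ± 0.071 and -0.10 ± 0.065). EVX2, which lies between KIAA1715 and the HOXD genes, had 1 read over all libraries.

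Of 8 tested genes for TALE cofactors of HOX proteins, 3 rose with ARID1A WT against all 4 controls and 0 fell, where 44.5% of all genes passed. Against the own pair 7 rose and 0 fell, where 60.7% of all genes passed. With ARID1A WT against all 4 controls MEIS3 rose from means of 0.406 and 0.665 CPM to 2.98 CPM (2.48 ± 0.33), and PKNOX1 by 0.36 ± 0.058. With CBR against WT 5 of the 8 were lower and 1 higher, where 47.5% of all genes passed. PKNOX2 had 4.57 CPM with CBR and 16.6 CPM with WT (-1.86 ± 0.29), and MEIS2 55.0 and 110 CPM (adjusted p = 5.81e-05). PKNOX1 was the higher one (0.25 ± 0.065).

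Genes of the complexes that keep HOX clusters silent or active changed in both directions. Of 23 Polycomb genes 3 rose and 5 fell with ARID1A WT against all 4 controls, and of 18 trithorax-type genes 3 rose and 4 fell. EZH2, the methyltransferase of PRC2, fell by 0.41 ± 0.065 on the log2 scale, and PCGF2 of PRC1 by 0.66 ± 0.10, while the PRC2 subunits EED (0.50 ± 0.093) and JARID2 (0.67 ± 0.090) rose. The methyltransferase gene KMT2B fell by 0.51 ± 0.082 and WDR5, a shared subunit of these complexes, by 0.49 ± 0.060, whereas MLLT3 of the elongation complex rose by 0.96 ± 0.20. Against 44.5% for all genes, 8 of 23 and 7 of 18 passed. With ARID1B WT 1 Polycomb gene rose and 5 fell, and 2 trithorax-type genes rose and 6 fell, where 43.1% of all genes passed. Neither share was above that of all genes.

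Retinoic acid is the classic inducer of anterior HOX genes. Of 10 tested genes of its synthesis, breakdown, binding and reception, 5 rose with ARID1A WT against all 4 controls and 1 fell, and the counts with ARID1B WT were also 5 and 1, where 44.5 and 43.1% of all genes passed. The synthesis gene ALDH1A1 had 0 reads in every empty vector library and means of 4.39 CPM with ARID1A WT and 6.04 CPM with ARID1B WT. ALDH1A2, which makes the same product, was the fall, from means of 60.6 and 32.3 CPM in the control pairs to 4.84 CPM with ARID1A WT. RARB, a receptor gene that retinoic acid itself induces, rose by 0.80 ± 0.19 with ARID1A WT, and CYP26B1, which breaks retinoic acid down, by 2.70 ± 0.34. With CBR against WT RARB was lower (-1.27 ± 0.23), and so was CYP26B1 (-0.98 ± 0.33). HOXB1, an anterior HOX gene, had no reads.

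Among endometrial genes linked to HOXA10 and HOXA11, EMX2, which HOXA10 represses in endometrium, fell with ARID1A WT by 2.20 ± 0.36 on the log2 scale, from means of 2.55 and 1.52 CPM to 0.451 CPM. The HOXA10 target ITGB3 rose from 0.0674 and 0.0327 CPM to 8.36 CPM (7.19 ± 0.42). HOXA10 itself had 11.8 and 13.3 CPM with ARID1A WT, between the control pairs (8.75, 8.27, 20.9 and 21.6 CPM), and did not pass against all 4 (-0.22 ± 0.27). With CBR, which had the lowest HOXA10 of the series (5.90 and 5.83 CPM), EMX2 averaged 0.227 CPM and ITGB3 1.23 CPM. Of the 6 ParaHox genes, the close relatives of HOX genes, only PDX1 was tested, and it fell with ARID1A WT (-0.88 ± 0.23).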

How the data were processed

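Polyadenylated RNA of 28 AN3CA libraries was sequenced after NEB Next preparation, per the labels' protocols. The deposited files hold raw read counts per gene symbol in unstranded and stranded columns. The submitters' processing notes name bcl2fastq, STAR 2.5.2b, Bowtie2 2.29 and hg19, without roles; the annotation is not given in the sources used here. Counts on the strand opposite to the read were used. Reads that name no gene (21.6 to 36.3% per library) were left out. Genes kept by the edgeR 4.0.16 filter (14220 of 26346) were scaled by TMM and fitted with the quasi-likelihood test over all 13 groups (R 4.3.3). A gene was called at a two-sided Benjamini-Hochberg adjusted p under 0.05, and "passed" means called. Errors beside log2 fold changes are standard errors. Strand sets were split at 90 and 98% of strand-assigned reads. The own-pair fits treated the control pairs as separate groups. Alternatives were DESeq2 1.42.0, other size factors, no filter, unstranded counts, a replicate block, each control pair alone and leaving out each library. The calculation was tested on simulated data. Every HOX gene enters the counts; 1 HOX gene and 1 cofactor gene are not reported singly here or plotted. HOX genes at 1 CPM or more in any group and called with ARID1A WT or ARID1B WT against the empty vector were given by library, and from each list up to 4 called genes with the smallest p were named. Other genes named, and members of single comparisons, were chosen after their values were seen. The members, gene lists and comparisons were chosen with earlier results of these data known. Promoters were taken from the RefSeq GRCh38.p14 table, which listed 20 of the 39 genes. Replicates with the same number did not deviate together (78 pairs, correlation -0.132 to 0.119).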

Additional observations from a re-analysis of the deposited data

Results flagged for a closer look

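The response to ARID1A WT minus the response to ARID1B WT, each taken over the empty vector pair of its own strand set, was tested for every gene. In 7 HOX genes the difference passed and the responses themselves passed in opposite directions. It was 1.84 on the log2 scale for HOXA9, 1.21 for HOXA11, 1.16 for HOXA2, 1.16 for HOXA10 and 1.05 for HOXA3, which were higher with ARID1A WT and lower with ARID1B WT. It was -1.15 for HOXB5 and -0.70 for HOXB6, which went the other way. The difference contains that between the control pairs (empty vector 3 and 4 against 1 and 2), which was 1.47 for HOXA9, 1.19 for HOXA11, 1.27 for HOXA2, 1.32 for HOXA10, 0.82 for HOXA3, -0.68 for HOXB5 and -0.40 for HOXB6. In the direct comparison of the ARID1A WT and ARID1B WT libraries, construct and strand set cannot be told apart. None of the 7 passed there by edgeR in the fit with the controls as 1 group. With the control pairs as separate groups HOXA3 (0.23), HOXB5 (-0.47) and HOXB6 (-0.31) passed there, in the direction of the difference of responses, and the other 4 did not. Over all 29 HOX genes the first of these fits had 5 at an unadjusted p under 0.05 by edgeR and 0 called by DESeq2.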

How the results depend on the processing

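Counts are HOX genes called out of 29. Shares of all genes are given above for the own-pair, single-pair and separate-group fits. Against empty vector 1 and 2 alone they were 60.2 to 63.8% for the constructs of set 3. They are not given for the replicate block, DESeq2, other size factors, no filter, most unstranded runs or left-out libraries. Those counts are therefore not results particular to HOX genes. With the replicate block the counts against the empty vector were 23 for ARID1A WT, 26 for DBDmut, 23 for DDX4, 22 for AQGscram, 22 for 42YS, 22 for ARID1B WT, 21 for M2 and 25 each for A457_G461del, Block13del and Block9del. Between constructs the block gave 20 for delIDR1 against WT, 3 for DBDmut against WT, 9 for M2 against ARID1B WT, 10 for 42YS against AQGscram, 7 and 9 for A457_G461del against Block13del and Block9del, and 10 for ARID1A WT against ARID1B WT. The empty vector carries numbers 1 to 4 and its pairs lie in different strand sets. Numbers 3 and 4 occur only there, so the block leaves empty vector 1 and 2 as the reference. It is thus not a separate check from the fits with that pair. For DDX4, ARID1B WT and M2 that pair is of the other set. Against the own pair ARID1A WT had 23 and DBDmut 26. Against empty vector 1 and 2 alone AQGscram had 24, 42YS 22 and the 3 ARID1B deletions 25 each, and against empty vector 3 and 4 alone 42YS had 14 and A457_G461del 16. With the control pairs as separate groups delIDR1 against WT had 20, DBDmut against WT 3, M2 against ARID1B WT 9, 42YS against AQGscram 10, A457_G461del against Block13del 7 and against Block9del 10, and ARID1A WT against ARID1B WT 10, while the difference of their own-pair responses had 22. With no filter on low counts M2 against ARID1B WT, A457_G461del against Block9del and ARID1A WT against ARID1B WT had 1 each. Without strand 42YS against AQGscram had 2 and A457_G461del against Block13del 1. DESeq2 gave 1 for A457_G461del against Block13del and 1 against Block9del, and the other size factors 1 for the latter.

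Leaving out each library in turn, counts against the empty vector ran from 5 to 12 for ARID1A WT, 15 to 22 for CBR, 5 to 13 for delIDR1, 4 to 11 for DBDmut, 2 to 16 for DDX4, 1 to 12 for AQGscram, 2 to 14 for 42YS, 6 to 14 for ARID1B WT, 6 to 18 for M2, 3 to 16 for A457_G461del, 1 to 11 for Block13del and 4 to 15 for Block9del. They ran from 11 to 15 for CBR against WT, 4 to 6 for delIDR1 against WT and 1 to 2 for 42YS against AQGscram, and stayed at 0 for the other 6 pairs of constructs. A construct left with 1 library is assumed to vary like the other groups. Of 140 single-gene calls, none changed direction under any alternative run, but many were lost. The own pair lost 26 of 81 calls, empty vector 3 and 4 alone 14 of 34, and leaving out 1 library 206 of 790 results. Of all 140, the replicate block and DESeq2 lost 12 each, no filter 8, and the other size factors and the unstranded column 4 each. None was lost against empty vector 1 and 2 alone (34 calls) or, between constructs, with the control pairs as separate groups (25 calls). The cause of these changes was not tested. With 2 libraries a construct, genes under 1 CPM such as HOXB2, HOXB4 and HOXB7 had standard errors that allow no call of small differences.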
